A study of Mus musculus with 6 samples.

Results

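Endothelial genes were examined in damaged hepatocytes (dHeps) as a set of 42 protein-coding genes, listed from general knowledge of vessel and liver sinusoid biology, among the 52323 genes of the count table. The set held 34 pan-endothelial genes, 3 genes known from liver sinusoids (Stab1, Stab2 and Lyve1) and 5 tip-cell or angiogenic genes (Apln, Aplnr, Dll4, Esm1 and Angpt2). All 42 were found by symbol, and all 42 were among the 19135 genes kept by the filter on low counts. Cldn5, Robo4, Gpihbp1, Myct1, Erg, Sox17, Sox18, Ramp2 and Aplnr did not reach the filter's limit in both DMSO libraries, so these 9 passed it through the cocktail libraries, and Erg and Myct1 read 0 in both DMSO libraries. The RNA came from liver cells of CCl4-injured mice with the AAV-TBG-Cre:Rosa-LSL-tdTomato tracing system, in which the hepatocyte promoter TBG drives Cre and Cre switches on the red reporter. That genotype, the injury, the serum-free maintenance medium and the harvest on day 16 were common to all 6 libraries. The 2 DMSO libraries received solvent. The 2 libraries of the 3C group received 50 µM CID755673 (a protein kinase D inhibitor), 2 µM GSK429286A (a ROCK inhibitor) and 5 µM ETC-1002 (named by the study as an AMPK activator). The 2 libraries of the 5C group received these compounds plus salidroside, a plant glycoside, at 5 µM and 2 µM forskolin (an adenylate cyclase activator). The labels used here give no mouse age. The study's methods call its replicates biological, but the labels do not tie those of a group to separate animals or cultures, so the p-values measure the spread between these libraries. The cells were released by collagenase perfusion, the study described most of them as carrying the reporter, and its methods named no step that removes endothelial cells.

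Endothelial cells line blood vessels, hold each other through VE-cadherin junctions, and depend on vascular endothelial growth factor (VEGF) and angiopoietin receptors. Transcription factors of the ETS family, such as Erg, and of the SoxF group (Sox7, Sox17 and Sox18) drive many of their genes. Liver sinusoidal endothelium is a fenestrated, scavenging form marked by stabilins and Lyve1, and sprouting vessels are led by tip cells that make Apln, Dll4, Esm1 and Angpt2. Hepatocytes express few of these genes, whereas liver macrophages share some of them, including Stab1 and Lyve1.

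Levels are given as CPM, a gene's count divided by the total of its library and scaled to a common depth. Totals ranged from 65916573 to 69245895 counts, and the largest was 1.05 times the smallest. Differences are log2 fold changes with their standard error (SE) from the quasi-likelihood test of edgeR, and each adjusted p comes from that test over all 19135 genes. A gene was called when its adjusted p was under 0.05 and its absolute log2 fold change was above 1. The floor under which a group was treated as not measurable was 12 counts in a library (0.173 to 0.182 CPM), and folds against a group at or under it are lower bounds. The libraries were labelled hepatocytes. Summed CPM of 9 hepatocyte markers was 2032 to 2413 in DMSO, 10651 to 11073 in 3C and 10385 to 15124 in 5C, and the same libraries held summed levels of 12 stellate cell markers of 7214 to 12755 CPM and of 12 macrophage markers of 1511 to 6925 CPM. Whether the stellate and macrophage marker RNA came from other cells or from the damaged hepatocytes was not tested. In bulk RNA, fewer cells of a type and less RNA per cell cannot be told apart.

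The 42 genes split in opposite directions. Over DMSO, 20 of the 34 pan-endothelial genes rose with 5C and 13 with 3C, as did 4 and 2 of the 5 tip-cell genes, whereas Stab1, Lyve1, Vwf and Cd93 fell in both cocktails. Against DMSO, 24 genes rose in 5C, where 7.3% of all tested genes were called higher, and 4 fell, where 4.42% of all genes were called lower. In 3C against DMSO, 15 rose beside 5.83% of all genes and 4 fell beside 3.62%. In 5C against 3C, 17 rose beside 2.16% of all genes. No member was called lower in 5C than in 3C by edgeR or DESeq2, where 0.852% of all genes were called lower by edgeR. By edgeR, 2 members had an adjusted p under 0.05 there but lay inside the fold limit. They were Stab1 (-0.55, adjusted p = 0.0192) and Flt4 (-0.39, adjusted p = 0.00985). Of the 33 members that reached the filter's limit in both DMSO libraries, 18 rose with 5C and 10 with 3C, and the counts over all 42 include 6 and 5 calls of genes that passed through the cocktail libraries and whose calls rest in part on that selection. The median log2 fold change of the 42 genes was 3.10 in 5C against DMSO, 1.57 in 3C against DMSO and 1.60 in 5C against 3C, beside 0.0041, 0.0088 and -0.011 over all genes. With the 5 genes at or under the floor in DMSO set to their lower bounds, the first 2 medians were 3.10 and 1.29. With at least 10 counts required in every library, the first median was 1.42, and without 3C replicate 2 the second was 0.59. The 2 DMSO libraries serve as the control of both cocktails. The next counts include calls against DMSO of genes that passed the filter through the cocktail libraries, such as Erg, Myct1 and Sox18. The stability of those calls is a description only, since they rest in part on that selection. The 28, 19 and 17 calls held in every fit that left out 1 of the 6 libraries for 21, 10 and 6 genes, respectively.

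**Figure D1:**
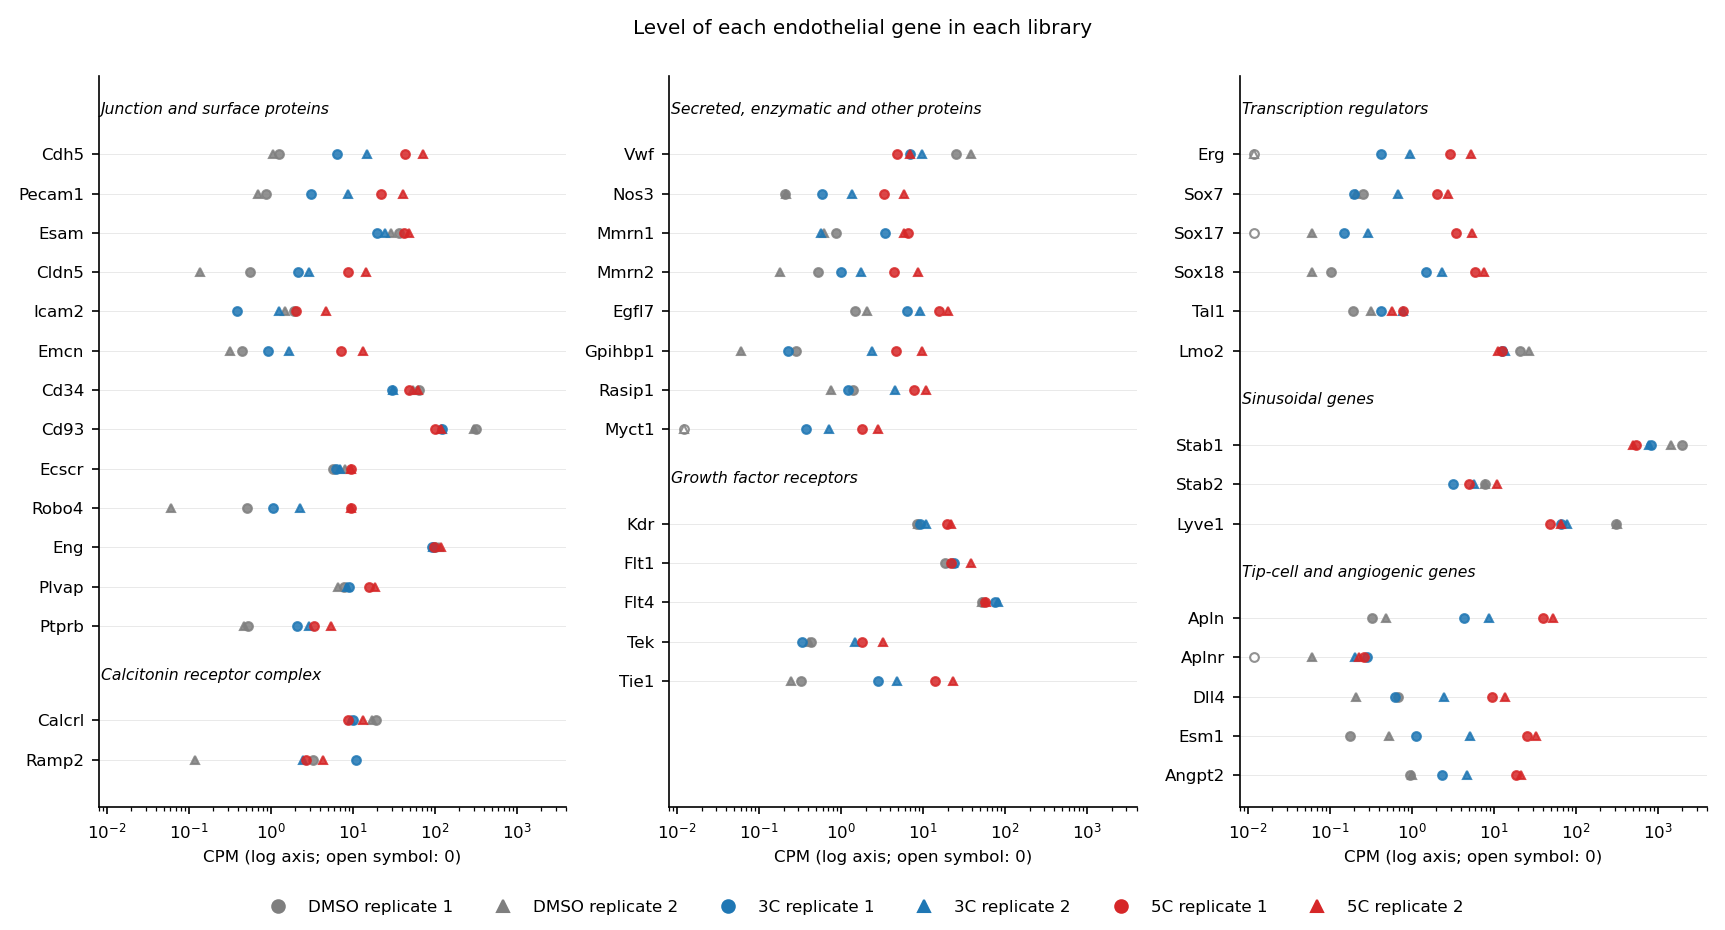
CPM of each of the 42 genes (rows, grouped by role) in each library on a log axis, with colour for the group, circles for replicate 1, triangles for replicate 2 and open symbols for a value of 0. Genes such as Cdh5 and Apln run from grey (DMSO) through blue (3C) to red (5C), and Stab1, Lyve1, Cd93 and Vwf lie lower in all cocktail libraries than in DMSO.

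Of the 13 junction and surface genes, 7 rose and 1 fell in 5C against DMSO, 5 rose and 1 fell in 3C against DMSO, and 5 rose in 5C against 3C. Cdh5 (chromosome 8, 104828231 to 104871143, GRCm39), which encodes VE-cadherin, the defining adhesion protein of endothelial junctions, read 1.25 and 1.06 CPM in DMSO, 6.45 and 14.9 CPM in 3C, and 43.3 and 72.2 CPM in 5C. Pecam1, the CD31 adhesion molecule, read 0.878 and 0.698 CPM in DMSO, 3.11 and 8.77 CPM in 3C, and 22.3 and 41.4 CPM in 5C. The 3 groups did not overlap for either gene, and replicate 2 was the higher library in both cocktails. Cdh5 rose by 5.66 on the log2 scale (SE 0.62, adjusted p = 0.00363) in 5C against DMSO, by 3.17 (SE 0.59, adjusted p = 0.0224) in 3C against DMSO and by 2.49 (SE 0.51, adjusted p = 0.04996, just under the threshold) in 5C against 3C. Pecam1 rose by 5.36 (SE 0.73, adjusted p = 0.00749) and 2.88 (SE 0.70, adjusted p = 0.0493) against DMSO, while its 5C against 3C value of 2.48 (SE 0.61) had an adjusted p of 0.0810 and a 95% interval of 0.84 to 4.11. Without DMSO replicate 1 or DMSO replicate 2, the calls of Cdh5 and Pecam1 against DMSO were lost. Over all fits that left out 1 library, whichever it was, their log2 fold changes against DMSO lay between 1.94 and 5.99. The Cdh5 call in 5C against 3C was lost without either DMSO library or either 5C library, with an adjusted p up to 0.182.

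Cldn5, the tight junction claudin of endothelium, read 0.566 and 0.137 CPM in DMSO, 2.16 and 2.92 CPM in 3C, and 8.70 and 14.6 CPM in 5C. Emcn, a sialomucin of capillary and venous surfaces, read 0.447 and 0.319 CPM in DMSO, 0.936 and 1.69 CPM in 3C, and 7.18 and 13.3 CPM in 5C. Emcn was called in all 3 comparisons, by 4.76, 1.74 and 3.02 (SE 0.45, 0.43 and 0.40) for 5C over DMSO, 3C over DMSO and 5C over 3C. Cldn5 gave 5.07, 2.82 and 2.25 (SE 0.60, 0.58 and 0.51) in the same order and was called in 5C over 3C. Cldn5 passed the filter through the cocktail libraries, so its values against DMSO are a description, and its calls there rest in part on that selection. Robo4, a guidance receptor that stabilises vessels, read 0.521 and 0.0607 CPM in DMSO, 1.06 and 2.26 CPM in 3C, and 9.67 and 9.52 CPM in 5C. Robo4 gave 5.05 (SE 0.82) in 5C against DMSO and missed the threshold in the other comparisons. Like Cldn5 it passed the filter through the cocktail libraries, so its value against DMSO is a description only. Ptprb, the VE-PTP phosphatase that acts on Tie2 and VE-cadherin, read 0.536 and 0.470 CPM in DMSO, 2.10 and 2.98 CPM in 3C, and 3.40 and 5.43 CPM in 5C, and it rose by 3.15 (SE 0.37) and 2.30 (SE 0.36) against DMSO. Plvap, which forms the diaphragms of fenestrae and caveolae, was at 7.89 and 6.68 CPM in DMSO, 9.04 and 8.47 CPM in 3C, and 15.8 and 18.9 CPM in 5C. The Plvap rise was found with 5C, by 1.27 (SE 0.16) against DMSO and 1.04 (SE 0.16) against 3C, and the latter came under the fold limit without 3C replicate 2 or without 5C replicate 2, to 0.88 at the lowest. Exons of Plvap overlap Gtpbp3 on the other strand over 21.7% of their bases, and Gtpbp3 stood at 18.7 to 24.4 CPM and was not called. The Emcn call in 3C was lost without either DMSO library or 3C replicate 2. The Cldn5 call in 5C against 3C was lost without any 1 of the 4 cocktail libraries. For 3C over DMSO, the Cldn5 log2 fold change ran from 2.15 to 4.15 over the fits that left out 1 library.

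The other surface genes, Cd93, Esam, Cd34, Eng, Icam2 and Ecscr, did not follow that order. Cd93, a lectin-like receptor of endothelium and myeloid cells, read 318 and 301 CPM in DMSO, 122 and 123 CPM in 3C, and 102 and 120 CPM in 5C. It fell by 1.37 (SE 0.09, adjusted p = 1.10e-05) in 3C and by 1.46 (SE 0.09, adjusted p = 5.05e-06) in 5C on the log2 scale. Esam, a junctional adhesion molecule also found on platelets, read 36.6 and 29.2 CPM in DMSO, 19.8 and 25.1 CPM in 3C, and 41.9 and 49.2 CPM in 5C. The Esam level in 3C was below DMSO and that in 5C above it, each inside the fold limit, and Esam was called higher in 5C than in 3C at 1.07 (SE 0.15, adjusted p = 0.00276). Leaving out 3C replicate 1 or 5C replicate 2 brought that value under the fold limit, to 0.91 at the lowest. Cd34, Eng, Icam2 and Ecscr were called in none of the comparisons by edgeR, with log2 fold changes from -1.08 (Icam2, 3C against DMSO) to 2.09 (Icam2, 5C against 3C). Exons of Icam2 overlap Prr29 on the other strand over 24.5% of their bases, and Prr29 did not exceed 0.136 CPM. Cd34, a sialomucin of vessels and progenitor cells, came nearest, with -0.998 (SE 0.13, adjusted p = 0.000689) in 3C against DMSO, just inside the fold limit, and DESeq2 called it lower there. Eng, the endoglin co-receptor, differed little, by 0.05 (95% interval -0.21 to 0.31) in 5C against DMSO.

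Among the 8 genes for secreted, enzymatic and other endothelial proteins, 6 rose and 1 fell in 5C against DMSO, 4 rose and 1 fell in 3C, and 4 rose in 5C against 3C. Nos3, the endothelial nitric oxide synthase, read 0.208 and 0.212 CPM in DMSO, 0.589 and 1.38 CPM in 3C, and 3.36 and 5.79 CPM in 5C. Egfl7, a secreted protein of growing vessels, read 1.46 and 2.09 CPM in DMSO, 6.43 and 9.26 CPM in 3C, and 15.5 and 20.001 CPM in 5C. For both, the groups were ordered without overlap, and both were called in all 3 comparisons, Nos3 by 4.45, 2.18 and 2.27 and Egfl7 by 3.34, 2.11 and 1.23 for 5C over DMSO, 3C over DMSO and 5C over 3C. Mmrn2, a matrix protein of endothelium, followed the same order from 0.521 and 0.182 CPM in DMSO through 1.01 and 1.73 CPM in 3C to 4.40 and 8.78 CPM in 5C, and was called at 4.25 (SE 0.58), 1.93 (SE 0.56) and 2.32 (SE 0.51). Myct1 read 0 in both DMSO libraries, 0.377 and 0.704 CPM in 3C, and 1.80 and 2.84 CPM in 5C. That made it at least 2.97-fold higher in 3C and at least 12.7-fold higher in 5C than the DMSO floor, a description only, since it passed the filter through those libraries.

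Vwf, the clotting protein that is one of the classical markers of vessel endothelium, went the other way. It read 25.03 and 38.4 CPM in DMSO, 6.98 and 9.78 CPM in 3C, and 4.78 and 6.86 CPM in 5C, and fell by 1.95 (SE 0.29, adjusted p = 0.00303) in 3C and by 2.43 (SE 0.30, adjusted p = 0.00100) in 5C on the log2 scale. The Vwf call held when any 1 library was left out. Mmrn1, a multimerin of platelets and lymphatic endothelium, read 0.864 and 0.622 CPM in DMSO, 3.43 and 0.572 CPM in 3C, and 6.62 and 5.83 CPM in 5C. Here the 3C libraries overlapped DMSO, and Mmrn1 rose by 3.08 (SE 0.79, adjusted p = 0.0326) in 5C against DMSO. Rasip1, a Ras-interacting protein needed for vessel lumens, read 1.40 and 0.759 CPM in DMSO, 1.21 and 4.51 CPM in 3C, and 7.67 and 10.7 CPM in 5C, a rise of 3.11 (SE 0.67, adjusted p = 0.0171) in 5C against DMSO. Gpihbp1, which anchors lipoprotein lipase to capillaries, was not called, at 5.40 on the log2 scale (SE 1.44, adjusted p = 0.0553) in 5C against DMSO. It passed the filter through the cocktail libraries, so that value is a description only. Exons of Rasip1 overlap Izumo1 and 2 further genes over 51.3% of their bases, and those of Nos3 overlap Atg9b and Gm15587 over 32.7%. Izumo1 stayed at or under 0.117 CPM and Atg9b, at 0.376 to 1.39 CPM, was not called. Without DMSO replicate 1, DMSO replicate 2 or 5C replicate 2, the calls of Mmrn1 and Rasip1 were lost (adjusted p up to 0.213 and 0.127), and that of Mmrn1 also without 5C replicate 1. In 3C, the Nos3 call was lost without either DMSO library or 3C replicate 2 (adjusted p up to 0.103) and the Mmrn2 call without DMSO replicate 2 or either 3C library (up to 0.208). In 5C against 3C, 3C replicate 1 and 5C replicate 2 were each needed for the calls of Nos3, Mmrn2 and Egfl7, as was 3C replicate 2 for Mmrn2 (adjusted p up to 0.117, 0.169 and 0.101), and each of the 4 cocktail libraries for Myct1 (up to 0.239).

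Of the 5 growth factor receptors, Tie1 moved most. Tie1, the orphan receptor of the angiopoietin system, read 0.328 and 0.243 CPM in DMSO, 2.79 and 4.78 CPM in 3C, and 13.8 and 23.3 CPM in 5C. It rose by 6.04 (SE 0.42, adjusted p = 1.90e-05) in 5C against DMSO, by 3.69 (SE 0.41, adjusted p = 0.000310) in 3C against DMSO and by 2.35 (SE 0.33, adjusted p = 0.00330) in 5C against 3C, and kept all 3 calls whichever library was left out. Kdr, the main VEGF receptor of endothelium (VEGFR2), read 8.44 and 8.57 CPM in DMSO, 9.09 and 10.8 CPM in 3C, and 19.8 and 21.7 CPM in 5C. Its rise was seen with 5C, by 1.31 (SE 0.14, adjusted p = 0.000128) against DMSO and 1.12 (SE 0.14, adjusted p = 0.00145) against 3C, whereas 3C against DMSO gave 0.19 with a 95% interval of -0.13 to 0.51. Tek, the angiopoietin receptor Tie2, read 0.432 and 0.410 CPM in DMSO, 0.332 and 1.48 CPM in 3C, and 1.78 and 3.23 CPM in 5C. The rise of Tek in 5C against DMSO was 2.59 (SE 0.67, adjusted p = 0.0195), and it was lost without either DMSO library or 5C replicate 2 (adjusted p up to 0.114). Flt1 (VEGFR1, a decoy for VEGF) and Flt4 (VEGFR3, the VEGF-C receptor of lymphatic and sprouting vessels) were not called and ranged from 18.6 to 38.6 CPM and from 51.7 to 81.7 CPM. Flt4 was higher in 3C than in DMSO at 0.56 (SE 0.07, adjusted p = 0.000578), inside the fold limit. In 5C against 3C it was lower at -0.39 (SE 0.07, adjusted p = 0.00985), also inside that limit.

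**Figure D2:**
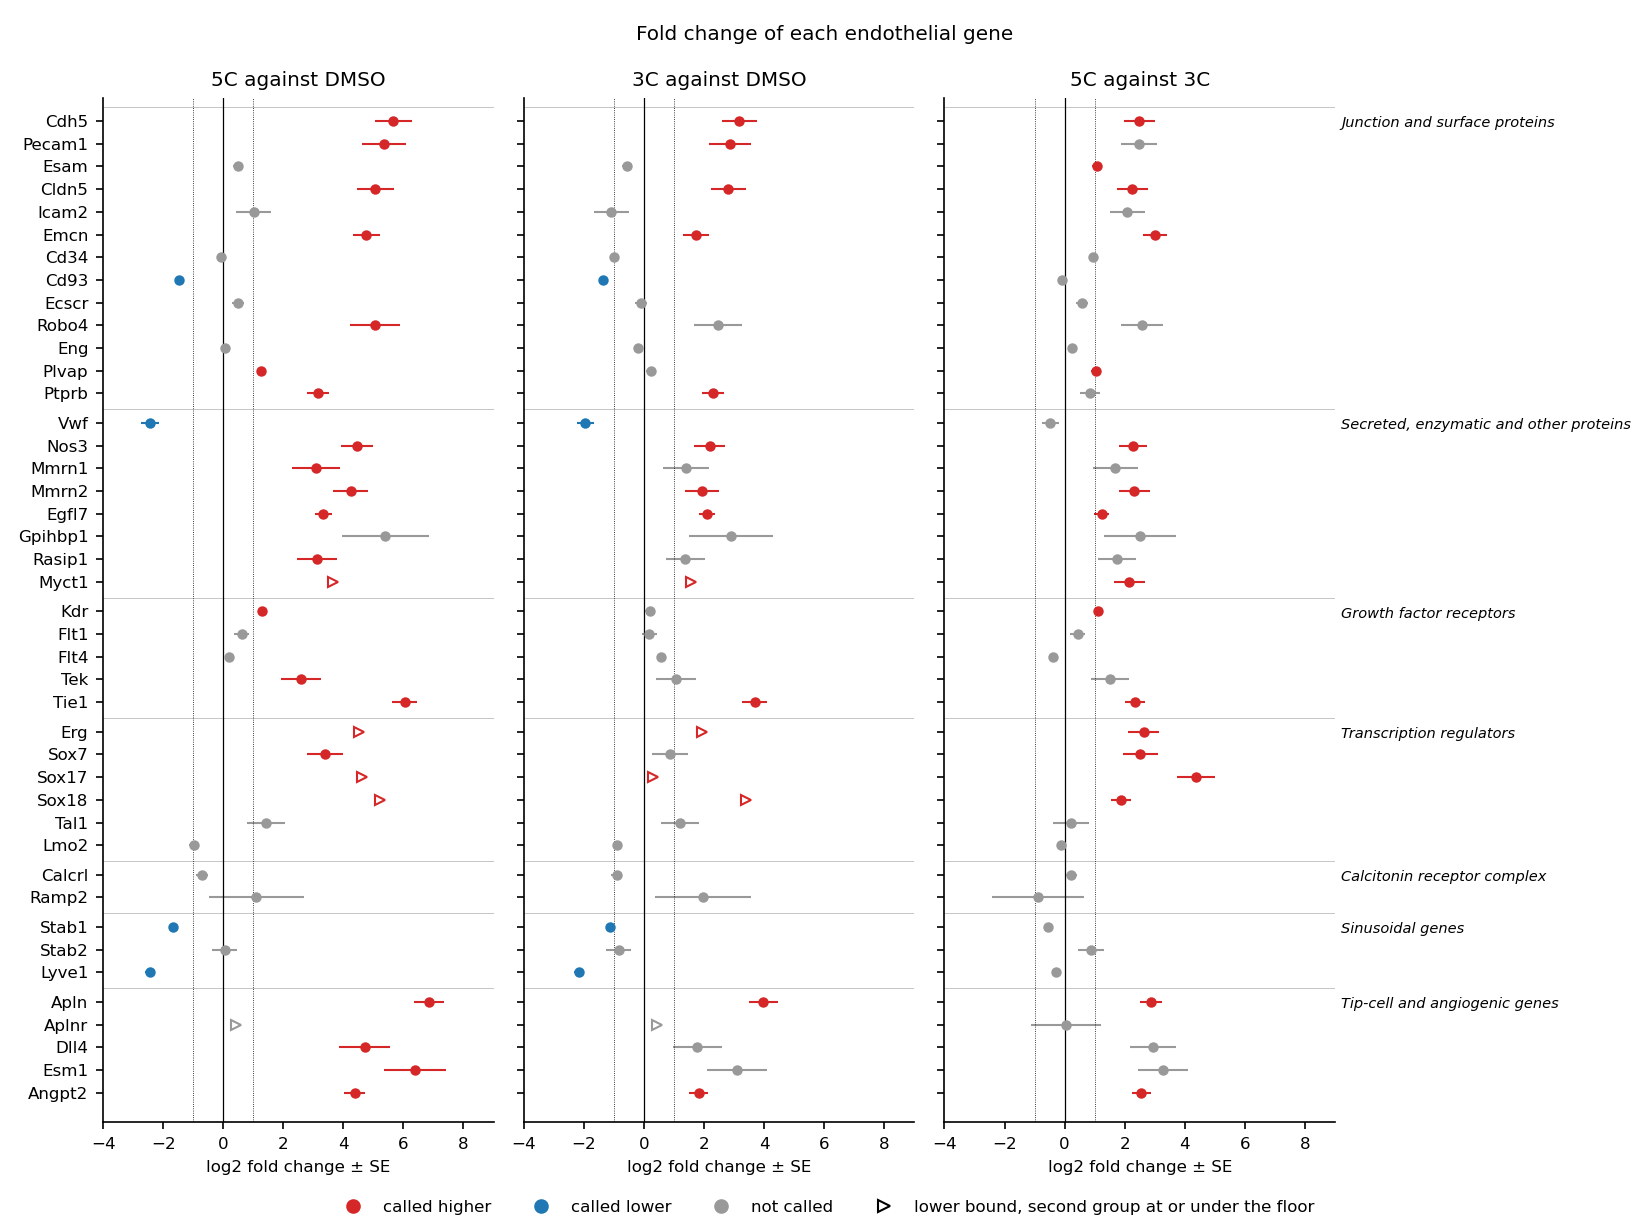
Log2 fold change (x axis) with its SE of the 42 genes (rows, by role) in the 3 comparisons, in red for genes called higher, blue for genes called lower and grey for genes not called; open triangles give lower bounds for genes at or under the floor in DMSO, and dotted lines mark the fold limit of 1. Red points extend to 6.85 (Apln) in 5C against DMSO, and the blue points are Cd93, Vwf, Stab1 and Lyve1.

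Of the 6 transcription regulators, Erg, Sox7, Sox17 and Sox18 were called higher in 5C than in DMSO and in 3C, and Tal1 and Lmo2, which blood cells share, were not called. Erg, Sox17 and Sox18 passed the filter through the cocktail libraries, so their differences from DMSO are given as lower bounds with no test. Erg (chromosome 16, 95160028 to 95387452), an ETS factor that maintains endothelial identity, read 0 in both DMSO libraries, 0.423 and 0.967 CPM in 3C, and 2.98 and 5.31 CPM in 5C. It was at least 3.82-fold higher in 3C and at least 22.8-fold higher in 5C than the DMSO floor. Sox18 read 0.104 and 0.0607 CPM in DMSO, both under the floor, 1.48 and 2.36 CPM in 3C, and 5.99 and 7.64 CPM in 5C, which made it at least 10.5-fold and at least 37.4-fold higher than that floor. Sox17, the SoxF factor of arteries, read 0 and 0.0607 CPM in DMSO, 0.151 and 0.293 CPM in 3C, and 3.49 and 5.46 CPM in 5C. In 5C it was at least 24.6-fold higher than the DMSO floor and 4.37 (SE 0.63, adjusted p = 0.00287) higher than in 3C on the log2 scale. Its 3C mean exceeded that floor at least 1.22-fold, with replicate 1 below the floor. Sox17 is counted among the 3C calls, but that call rests in part on how it passed the filter. It did not hold in most fits that left out 1 library. Sox7 read 0.253 and 0.212 CPM in DMSO, 0.196 and 0.674 CPM in 3C, and 2.04 and 2.80 CPM in 5C. It rose by 3.39 (SE 0.61, adjusted p = 0.00285) against DMSO and by 2.52 (SE 0.58, adjusted p = 0.0214) against 3C, and was not called in 3C against DMSO (0.87, SE 0.60, adjusted p = 0.364). Between the cocktails, the rises of Erg (2.63, SE 0.51) and Sox18 (1.88, SE 0.32) were lost without 3C replicate 1 or 5C replicate 2, with adjusted p up to 0.121 and 0.0591, and that of Sox7 without 3C replicate 1 or either 5C library (up to 0.139). Tal1 stayed between 0.194 and 0.792 CPM, and Lmo2 between 11.3 and 26.9 CPM with -0.99 for 5C over DMSO and -0.88 for 3C over DMSO on the log2 scale, inside the fold limit. Exons of Sox18 overlap Gm74574 on the other strand over 25.8% of their bases, and the library kit does not mark strand.

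The promoters of the 42 genes were searched for short words that ETS and Sox factors are known to bind. The window was the 250 bases before the start of the annotated main transcript (GENCODE, GRCm39), read on both strands. The ETS word AGGAAG stood in 23 of 42 promoters (54.8%), beside 28.9% of 21770 protein-coding promoters, and CCGGAA in 1 (2.38%), beside 12.4%. Among the 19 genes whose libraries were ordered DMSO below 3C below 5C, 12 held either ETS word, as did 12 of the other 23. The Sox words ACAAAG and ACAATG stood in 8 (19.0%) and 9 (21.4%) promoters, beside 15.9% and 9.41% of all. The GATA word AGATAA stood in 4 (9.52%), beside 9.61%. The cAMP response element TGACGTCA stood in 1 (2.38%), that of Flt1, beside 1.70%, and its shorter form TGACG, which that element contains, in 4 (9.52%), beside 18.0%. A match is a description of these letters and not a bound site. The windows of Tie1, Erg and Apln, which rose in both cocktails, and of Lyve1, which fell, are printed to show genes of both directions, each with its 1 AGGAAG word, in either orientation, in capitals.
Tie1 (chr4:118347259-118347508, - strand): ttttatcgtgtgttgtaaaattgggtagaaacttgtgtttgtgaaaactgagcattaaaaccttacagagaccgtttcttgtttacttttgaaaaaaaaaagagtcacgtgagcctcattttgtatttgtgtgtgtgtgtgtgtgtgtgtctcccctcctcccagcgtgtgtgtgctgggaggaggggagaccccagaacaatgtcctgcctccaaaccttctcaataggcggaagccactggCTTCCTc
Erg (chr16:95260208-95260457, - strand): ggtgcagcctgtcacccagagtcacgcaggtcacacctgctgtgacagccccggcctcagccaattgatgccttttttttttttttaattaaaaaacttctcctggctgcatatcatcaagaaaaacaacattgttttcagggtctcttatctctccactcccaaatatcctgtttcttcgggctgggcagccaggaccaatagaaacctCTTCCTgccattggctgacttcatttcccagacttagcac
Apln (chrX:47123776-47124025, - strand): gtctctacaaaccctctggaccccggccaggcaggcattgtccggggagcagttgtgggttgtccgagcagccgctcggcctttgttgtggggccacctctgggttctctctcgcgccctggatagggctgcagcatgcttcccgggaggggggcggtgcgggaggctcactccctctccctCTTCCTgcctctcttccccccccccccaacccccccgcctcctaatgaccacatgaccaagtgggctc
Lyve1 (chr7:110462461-110462710, - strand): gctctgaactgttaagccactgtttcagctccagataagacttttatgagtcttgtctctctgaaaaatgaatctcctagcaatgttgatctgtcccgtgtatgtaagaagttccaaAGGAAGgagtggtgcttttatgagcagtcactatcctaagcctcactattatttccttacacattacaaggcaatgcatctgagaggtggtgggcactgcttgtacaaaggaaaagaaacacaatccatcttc
The word stood in promoters of genes that moved in both directions.

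The calcitonin-receptor-like complex that binds adrenomedullin was not called by edgeR or DESeq2. Of its 2 genes, Calcrl alone had an adjusted p under 0.05 by edgeR, in both comparisons with DMSO. Its receptor Calcrl ranged from 8.80 to 19.3 CPM. On the log2 scale it gave -0.91 (SE 0.19, adjusted p = 0.00790) for 3C over DMSO and -0.70 (SE 0.19, adjusted p = 0.0242) for 5C over DMSO, each inside the fold limit. Its partner Ramp2 read 3.25 and 0.121 CPM in DMSO, 11.02 and 2.48 CPM in 3C, and 2.69 and 4.38 CPM in 5C, with overlapping groups. It shares 52.7% of its 50-base words with Vps25, so its counts are uncertain.

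The sinusoidal genes did not rise with the other endothelial genes. Stab1 (chromosome 14, 30860970 to 30890598), a scavenger receptor of sinusoids and of some macrophages, read 1970 and 1462 CPM in DMSO, 823 and 780.0 CPM in 3C, and 551 and 502 CPM in 5C. Lyve1 (chromosome 7, 110448585 to 110462460), the hyaluronan receptor of sinusoids and lymphatics, also found on resident macrophages, read 309 and 319 CPM in DMSO, 66.1 and 78.1 CPM in 3C, and 48.8 and 66.4 CPM in 5C. Stab2, the stabilin more restricted to sinusoids, read 7.89 and 7.87 CPM in DMSO, 3.20 and 5.83 CPM in 3C, and 5.05 and 10.9 CPM in 5C. Stab1 and Lyve1 were lower in all 4 cocktail libraries than in either DMSO library, while the Stab2 groups of DMSO and 5C overlapped. Stab1 fell by 1.68 (SE 0.12, adjusted p = 1.86e-05) in 5C and by 1.13 (SE 0.12, adjusted p = 0.000220) in 3C on the log2 scale, and without DMSO replicate 1 the 3C value was -0.91, inside the fold limit. Lyve1 fell by 2.42 (SE 0.16, adjusted p = 5.28e-05) in 5C and by 2.15 (SE 0.16, adjusted p = 0.000115) in 3C, whichever library was left out. Stab2 gave 0.04 (SE 0.41) in 5C and -0.83 (SE 0.42) in 3C against DMSO, and the 5C value was -0.64 without 5C replicate 2. Between the cocktails none of the 3 was called by edgeR or DESeq2. Stab1 was lower in 5C at -0.55 (SE 0.12, adjusted p = 0.0192), the only one of the 3 with an unadjusted p under 0.05, Lyve1 gave -0.27 (95% interval -0.65 to 0.10) and Stab2 0.88 (95% interval -0.12 to 1.87).

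Macrophage markers moved with the genes that fell. The summed level of 12 macrophage markers was 6111 and 6925 CPM in DMSO, 2227 and 2230 CPM in 3C, and 1608 and 1511 CPM in 5C. Of these markers, 11 of 12 fell in 3C and in 5C against DMSO, beside 3.62% and 4.42% of all tested genes. They included Adgre1 (F4/80) and Csf1r, and the exception was Clec4f. No macrophage marker was at 0 in all libraries. Platelets also hold Vwf, and 6 platelet markers summed to 2.35 and 4.79 CPM in DMSO, 1.13 and 1.22 CPM in 3C, and 2.29 and 2.59 CPM in 5C. Of these, Itga2b fell in 3C against DMSO, from 3.05 and 1.87 to 0.755 and 0.879 CPM, and was higher in 5C than in 3C. Gp1bb, at 1.49 and 0.394 CPM in DMSO and 0.0145 to 0.220 CPM in the cocktails, was not called, Gp5 ranged from 0.0910 to 0.332 CPM, Gp6 and Ppbp were at 0 in every library, and Gp9 did not exceed 0.0433 CPM. Of 14 further genes known from sinusoidal endothelium, 11 were tested. Relative to DMSO, 3 fell with 5C and 4 with 3C, beside 4.42% and 3.62% of all tested genes. Gata4 alone was called higher in 5C than in 3C (1.09), beside 2.16% of all tested genes. The median log2 fold change of the 11 genes was -0.023 in 5C and -0.32 in 3C against DMSO. Several ranged well above the floor without a call in any comparison, such as Ehd3 (37.6 to 65.2 CPM), Bmp6 (24.3 to 55.4 CPM) and F8 (at most 2.82 CPM), while Clec4g, Wnt9b and Dnase1l3 did not exceed 0.0586, 0.0596 and 0.231 CPM. Those that fell included Fcgr2b (196 and 194 CPM in DMSO, 74.8 and 66.2 CPM in 3C, 39.7 and 45.9 CPM in 5C) and the mannose receptor Mrc1, which macrophages also make. The part of macrophage or platelet RNA in the falls of Stab1, Lyve1, Cd93 and Vwf was not tested.

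**Figure D3:**
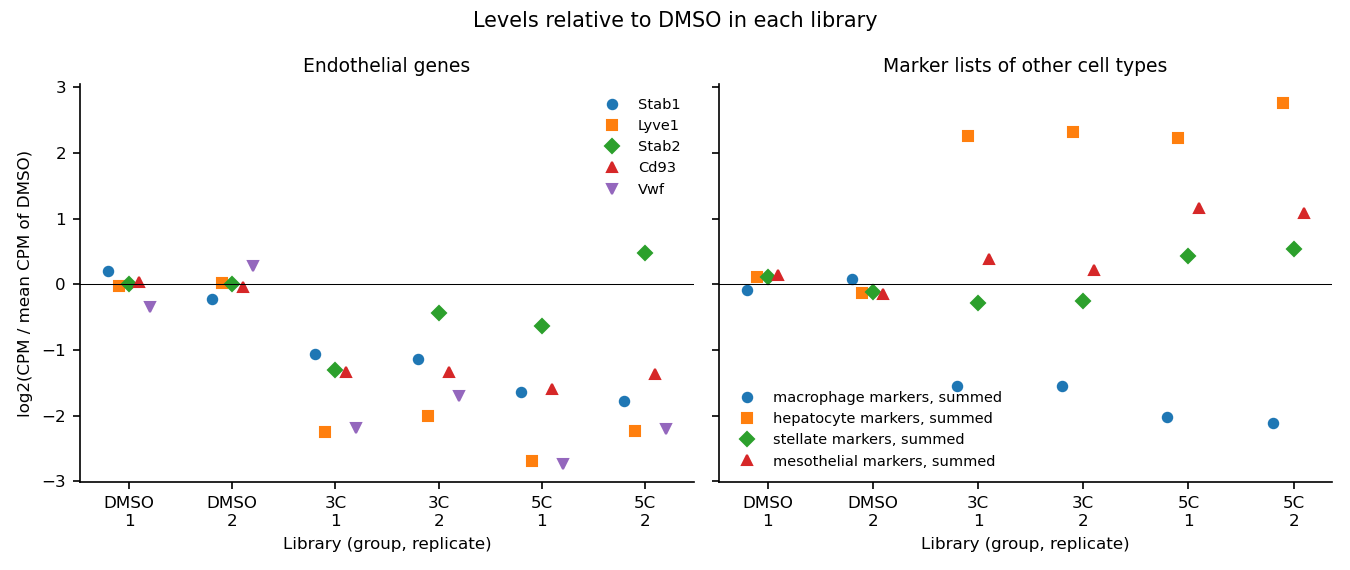
Level of each library relative to the mean of the 2 DMSO libraries (log2, y axis) for Stab1, Lyve1, Stab2, Cd93 and Vwf on the left and for the summed CPM of 4 marker lists on the right, with 1 symbol per library. Stab1, Lyve1, Cd93, Vwf and the macrophage markers (6111 to 6925 CPM in DMSO, 1511 to 1608 CPM in 5C) were lower in all cocktail libraries, and Stab2 spread around the DMSO level in 5C.

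Among the 5 tip-cell and angiogenic genes, 4 rose in 5C against DMSO, 2 in 3C against DMSO and 2 in 5C against 3C. Apln (chromosome X, 47114019 to 47123775), the apelin ligand made by sprouting endothelium, read 0.328 and 0.485 CPM in DMSO, 4.30 and 8.82 CPM in 3C, and 40.4 and 52.5 CPM in 5C. It rose by 6.85 (SE 0.48, adjusted p = 0.000196) in 5C against DMSO, by 3.98 (SE 0.47, adjusted p = 0.00210) in 3C against DMSO and by 2.87 (SE 0.37, adjusted p = 0.00644) in 5C against 3C. Angpt2, an angiopoietin that destabilises vessels, read 0.953 and 1.0164 CPM in DMSO, 2.34 and 4.78 CPM in 3C, and 18.5 and 21.8 CPM in 5C. Its rises were 4.37 (SE 0.34), 1.82 (SE 0.33) and 2.55 (SE 0.31) in the same comparisons, and each held whichever library was left out. Exons of Angpt2 lie over 70.7% of their bases across from Mcph1 on the other strand, and Mcph1 stood at 10.5 to 14.3 CPM and was not called.

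Esm1, a proteoglycan of tip cells, read 0.179 and 0.531 CPM in DMSO, 1.15 and 5.10 CPM in 3C, and 25.6 and 32.8 CPM in 5C. Dll4, the Notch ligand of tip cells and arteries, read 0.685 and 0.212 CPM in DMSO, 0.634 and 2.49 CPM in 3C, and 9.50 and 13.7 CPM in 5C. Both rose in 5C against DMSO, Esm1 by 6.38 (SE 1.03, adjusted p = 0.0162) and Dll4 by 4.71 (SE 0.85, adjusted p = 0.0112), and their 3C libraries differed 4.45-fold and 3.93-fold from each other. In 5C against 3C neither was called by edgeR (Esm1 3.27, SE 0.83, adjusted p = 0.0981; Dll4 2.94, SE 0.76, adjusted p = 0.0705), although the groups did not overlap and DESeq2 called both. The Apln receptor gene Aplnr stayed at or under 0.287 CPM in every library and was not called. Leaving out DMSO replicate 1 raised the adjusted p of Apln in 3C to 0.0544, leaving out DMSO replicate 2 raised that of Dll4 in 5C to 0.0618, and the Esm1 call was lost without either DMSO or either 5C library, with an adjusted p up to 0.128.

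In 19 of the 42 genes every 5C library exceeded every 3C library and every 3C library exceeded every DMSO library, an order found in 7.19% of all tested genes. They were Cdh5, Pecam1, Cldn5, Emcn, Robo4, Plvap, Ptprb, Nos3, Mmrn2, Egfl7, Myct1, Kdr, Tie1, Erg, Sox17, Sox18, Apln, Esm1 and Angpt2. Of these, Cldn5, Robo4, Myct1, Erg, Sox17 and Sox18 passed the filter through the cocktail libraries, so their place in this order rests in part on that selection. The reverse order held in 4 members (Cd93, Lmo2, Stab1 and Vwf), beside 8.8% of all genes. Within the cocktail groups the replicates differed in one direction. Replicate 2 was higher in 35 of 42 genes in 3C and in 36 of 42 in 5C, with median log2 ratios of replicate 2 to replicate 1, after 0.5 CPM was added to each, of 0.47 and 0.45, while the medians over all genes were -0.00051 and -0.013. In DMSO replicate 2 was higher in 16 genes and lower in 24, with a median of -0.080. Of the 19 genes in the ordered set, 18 were higher in replicate 2 in 3C, and 18 in 5C. In plain CPM, Pecam1 differed 2.82-fold between the 3C replicates and Cdh5 2.31-fold. With 0.5 CPM added, 9 of the 42 genes differed more than 2-fold between the 3C replicates, beside 0.998% of all genes, and in 5C 2 did, beside 1.12%. Summed macrophage markers differed little between the same libraries (2227 and 2230 CPM in 3C, 1608 and 1511 CPM in 5C). Hepatocyte markers were higher in replicate 2 of 5C, at 15124 against 10385 CPM, and stood at 11073 and 10651 CPM in replicates 2 and 1 of 3C. The median difference between 3C and 5C was smaller when 3C replicate 1 (median 1.08) or 5C replicate 2 (median 1.19) was left out.

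**Figure D4:**
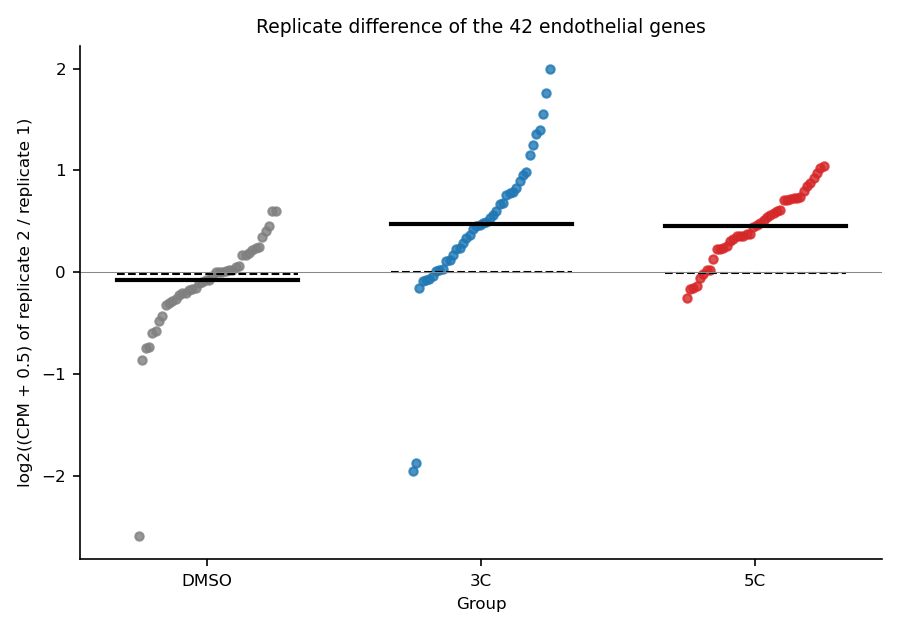
Log2 ratio of replicate 2 to replicate 1, with 0.5 CPM added to each (y axis), for the 42 genes in each group, sorted within the group; solid bars are the medians of the 42 genes and dashed bars the medians over all tested genes. The 3C and 5C points lie mostly above 0, with medians of 0.47 and 0.45, and the DMSO points lie on both sides of it.

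Levels of different genes were compared per length, as FPKM. In DMSO, Stab1 at 209 FPKM and Lyve1 at 99.2 FPKM led the 42 genes and made up 44.8% and 21.2% of their summed FPKM, while Cdh5 ranked 21st at 0.262 FPKM and Apln 28th at 0.114 FPKM. In 5C, Stab1 still ranked 1st at 63.2 FPKM (59.1 and 67.3 FPKM in its libraries) and Eng 2nd at 30.1 FPKM. Apln (13.3 FPKM), Cdh5 (13.0 FPKM), Esm1 (12.5 FPKM) and Egfl7 (12.4 FPKM) then held ranks 7 to 10, and the ranges of their 2 libraries overlapped, so these neighbours did not differ beyond their spread. The 5 tip-cell genes summed to 0.633 and 0.695 FPKM in DMSO, 2.49 and 6.58 FPKM in 3C, and 30.0 and 37.4 FPKM in 5C. The 3 sinusoidal genes summed to 345 and 274 FPKM in DMSO and 83.5 and 80.8 FPKM in 5C, still above the tip-cell genes.

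Other genes of the same pathways were read in the same fit, 60 of 66 having passed the filter. In 5C against DMSO 16 rose and 8 fell, beside 7.3% and 4.42% of all tested genes. In 3C against DMSO 8 rose and 7 fell, beside 5.83% and 3.62%. In 5C against 3C 6 rose and 2 fell, beside 2.16% and 0.852%. Of 17 tested further endothelial genes, 8 rose and 2 fell in 5C against DMSO. Most of those that rose did not reach the filter's limit in both DMSO libraries, so that count rests in part on this selection. Adgrl4, an adhesion receptor of sprouting vessels, read 0.179 and 0 CPM in DMSO, 0.468 and 0.484 CPM in 3C, and 4.95 and 7.31 CPM in 5C. Pcdh12, a protocadherin of endothelial junctions, went from 0.0744 and 0.0607 CPM in DMSO to 2.36 and 3.09 CPM in 5C. Adgrl4 and Pcdh12 passed the filter through the cocktail libraries, so these levels are a description with no test. Bmx, a kinase of arterial endothelium and myeloid cells, read 1.30 and 0.834 CPM in DMSO, 0.242 and 0.249 CPM in 3C, and 0 in both 5C libraries. Among Notch genes of vessels, 3 of 9 rose in 5C against DMSO, Notch4, the endothelial receptor, by 3.08 (SE 0.23) from 2.01 and 2.47 to 16.4 and 21.1 CPM, and Nrarp, a Notch target, by 3.07 (SE 0.31). Nrarp also rose in 3C against DMSO, by 2.84 (SE 0.31), while Notch4 was not called there at 0.86 (SE 0.22). The ligand Jag1 was lower in 5C than in 3C, at -1.17 on the log2 scale (SE 0.15, adjusted p = 0.00308). Of the VEGF and Tie ligands and co-receptors, Vegfc rose by 1.60 (SE 0.12) and Angpt1 by 1.0018 (SE 0.27) in 5C against DMSO, Nrp1 fell by 1.0041 (SE 0.10) on the log2 scale, and the other 5 of 8 were not called. Vegfc and Angpt1 also rose in 3C against DMSO, by 1.05 (SE 0.12) and 1.20 (SE 0.27). Nrp1 was not called there at -0.79 (SE 0.10). Of the adrenomedullin and apelin list, the receptor partners Ramp3 and Ramp1 rose in 5C against DMSO, by 1.75 (SE 0.47) and 1.10 (SE 0.31). Ramp1 also rose in 3C against DMSO, by 1.33 (SE 0.31), while Ramp3 was not called there at 0.46 (SE 0.46). The second apelin receptor ligand Apela did not exceed 0.121 CPM. Among 11 further regulators, Mef2c rose by 1.27 (SE 0.15) in 5C against DMSO, while Fli1, an ETS factor of endothelium and blood cells, fell by 1.25 (SE 0.14) and Klf4 by 1.09 (SE 0.11) on the log2 scale. Fli1 and Klf4 also fell in 3C against DMSO, at -1.35 (SE 0.14) and -1.30 (SE 0.11). Mef2c was not called there at 0.52 (SE 0.15). Etv2, which founds the endothelial lineage in embryos, was at 0 in all libraries.

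Markers of further cell types were read beside these genes. Of all tested genes, 7.3% were called higher in 5C against DMSO, and 5.83% higher and 3.62% lower in 3C against DMSO. Of 6 mesothelial markers, 5 rose in 5C against DMSO and 1 in 3C, and their summed level was 972 to 1182 CPM in DMSO, 1257 to 1402 CPM in 3C and 2295 to 2401 CPM in 5C. Of 12 stellate markers, 4 rose in 5C and 2 rose and 2 fell in 3C. Of 4 lymphatic markers, Ccl21a did not exceed 0.0440 CPM in any library. Prox1 and Pdpn, which hepatocytes and mesothelium also express, rose in 5C against DMSO by 1.19 (SE 0.11) and 1.18 (SE 0.07). Prox1 also rose in 3C against DMSO, by 1.51 (SE 0.12), while Pdpn was not called there at 0.0076 (SE 0.07). The remaining marker, Reln, was not called in 5C against DMSO, at -0.042 on the log2 scale (SE 0.45). Cholangiocyte markers summed to 2386 to 3699 CPM, with 3 of 6 called higher in 5C than in DMSO and 4 of 6 in 3C than in DMSO. Red cell markers summed to 2.43 to 4.54 CPM in any library. Of the mast cell markers Kit alone was tested, and it rose by 3.07 (SE 0.37) in 5C against DMSO from 0.640 and 0.956 to 5.18 and 8.01 CPM. Whether any of these cells carried part of the endothelial gene rise was not tested.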

How the data were processed

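Bulk RNA-seq of 6 libraries of cultured dHeps was used, 2 per group as labelled, made with an NEBNext Ultra kit that does not mark strand. The submitters' processing notes name featureCounts, Subread, DESeq2 and GRCm39, without roles. The deposited table holds estimated counts that the authors had not normalised. The entry 4 was more frequent (4816 values) than 3 (3121) or 5 (2303), so units per fragment are unknown, 4 were assumed, and a floor of 3 fragments was set at 12 units, covering counting error only. FPKM values, scaled by the authors for length and total, served for levels between genes.

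Counts were tested with edgeR 4.0.16 in R 4.3.3 (glmQLFit with robust estimates, glmQLFTest, TMM, filterByExpr) on all 6 libraries with 1 coefficient per group, 3 residual degrees of freedom and a common biological coefficient of variation of 18.4%, with Benjamini-Hochberg adjustment. The SE is the absolute log2 fold change over the square root of F. Replicate ratios used log2(CPM + 0.5). Exon overlaps of at least 20% are named. The fits were tested on simulated data. The members, gene lists, tests and naming rule were chosen with earlier results of these data known. The rule gives values in every library for genes called in any comparison and for Cdh5, Pecam1, Kdr, the sinusoidal and the tip-cell genes, and at most 3 called genes a pathway list. Alternatives were RLE and upper quartile scaling, other filters, DESeq2 1.42.0, fits to 2 groups, a replicate block, limma 3.58.1 on log2(FPKM + 1) and log2(FPKM + 0.1), no fold limit, and leaving out each library. Division of counts by 4 and the pathway gene counts under alternatives were chosen after seeing the data.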

Additional observations from a re-analysis of the deposited data

Results flagged for a closer look

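The Esam difference between the cocktails was picked out because Esam lay below DMSO in both 3C libraries and above it in both 5C libraries, with opposite signs against DMSO. The log2 fold change of 5C against 3C was 1.07 (SE 0.15, adjusted p = 0.00276 by edgeR), from 0.49 (95% interval 0.15 to 0.83) in 5C and -0.58 (95% interval -0.92 to -0.23) in 3C against DMSO. Both differences from DMSO use the same 2 DMSO libraries.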

How the results depend on the processing

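Of 64 calls, RLE scaling, upper quartile scaling and DESeq2 lost none, and the largest losses were 32 with limma on unfiltered log2(FPKM + 1) and 25 with its filtered form, where the added 1 exceeds the level of many of these genes. Over 1298 alternative values of 78 results for named genes, 1117 kept direction and call, 150 lost the call, 23 gained one and 8 changed sign. The sign changes were those of Stab2 in 5C against DMSO, -0.078 with a replicate block, -0.045 with both limma fits to log2(FPKM + 1) and -0.12 with log2(FPKM + 0.1), and -0.64 to 0.50 when 1 library was left out, and of Aplnr in 5C against 3C, -0.0011 with unfiltered limma and -0.17 to 0.31 when 1 library was left out. Such fits leave 1 group with a lone library, which is assumed to vary like the other groups.

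The counts of called members moved by over 1.5 times for 3C against DMSO (19), to 8 with limma on log2(FPKM + 1) and 6 without its filter, and for 5C against 3C (17), to 8 with unfiltered limma, 6 without 5C replicate 2 and 10 without 3C replicate 1, within a range of 6 to 20 over the libraries left out. The median log2 fold change with at least 10 counts in every library, limma on log2(FPKM + 1), log2(FPKM + 0.1) and unfiltered limma was 1.42, 0.85, 2.22 and 0.83 in 5C against DMSO and 0.87, 0.22, 0.97 and 0.22 in 3C against DMSO. In 5C against 3C, that filter, limma and unfiltered limma gave 1.12, 0.83 and 0.79. Leaving out 1 library gave medians of 0.59 (without 3C replicate 2) to 1.91 (without 3C replicate 1) in 3C against DMSO and 1.08 (without 3C replicate 1) to 1.89 (without 3C replicate 2) in 5C against 3C. Pathway genes called went from 27 to 12 with limma and 12 without its filter. The cause was not tested, except that the count filter leaves fewer genes and the added 1 shrinks low values. The labels do not say whether replicate numbers pair libraries across groups, and a shared source was not tested. Replicate differences over all tested genes correlated at -0.031, 0.00044 and 0.016 between groups. Among the 42 genes, replicate 2 was the higher library in 35 genes in 3C and 36 in 5C. The replicate block gave 28, 20 and 19 called members beside 28, 19 and 17. With 2 libraries a group, genes near the floor, such as Aplnr, Myct1 and Sox17, are the least certain.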
